A study of Mus musculus with 10 samples.

Results

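Mouse embryonic fibroblasts that had been induced with doxycycline for 96 h were compared between a cohort whose labels give 3 or more divisions on average and a cohort with 0. Each cohort was represented by 2 arrays, chosen by their titles and division labels, so the comparison used 4 of the 10 arrays of the series. All arrays measured total RNA from secondary inducible fibroblasts of a 129/SvJ x C57/B6 hybrid strain, in which doxycycline drives Pou5f1, Sox2, Klf4 and Myc. Both cohorts received doxycycline, labelled as 2 ug/ul, in medium with 15% serum. The other arrays were 2 of an uninduced control held in 0.5% serum for 96 h and 2 each of induced cohorts labelled with 1 and 2 divisions. The question was which genes differed between the cohorts of 3 or more and of 0 divisions, with the drug, the serum and the time held the same. The 0 is an average and does not state that no cell divided.

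Several features limit these groups as a model. The means by which cohorts were parted by division number is not stated in the sources used here, and the 2 titles for 3 or more divisions name the induction alone. The arrays of 3 or more divisions belong to a set registered earlier with the control. Those of 0, 1 and 2 divisions belong to a later set, so cohort and set of arrays cannot be told apart. The titles of the 3 or more divisions and control arrays call their replicates biological, while those of the later set only number them. No label names separate cultures or animals, so the p-values measure the spread between these samples, which in the later set may be technical. In bulk RNA, fewer cells of a type and less RNA per cell cannot be told apart.

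Early in reprogramming, fibroblasts that respond to these factors divide rapidly, switch off mesenchymal genes and switch on epithelial ones, a change known as the mesenchymal-to-epithelial transition. E-cadherin and the keratins mark the epithelial state, while fibrillar matrix, contractile proteins and the Snai, Twist and Zeb transcription factors mark the mesenchymal state. Dividing cells also need ribosomes, nucleotides and the replication and mitotic machinery.

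Vim, 1 of 12 fibroblast markers, read 14.42 and 14.37 after 0 divisions and 14.32 and 14.24 after 3 or more. The log2 intensity scale is used throughout. Over the 12 markers the median change (3 or more minus 0 divisions) was -0.70, with 1 change above 0. Vim alone thus does not identify the cells. Values are given in the order replicate 1, replicate 2. The 18 hybridization control probe sets differed between the cohorts by -0.17 to 0.03, and the 27 probe sets for Bacillus transcripts, which mouse RNA should not hold, read 2.82 to 4.08 over the 10 arrays. That upper reading serves below as a yardstick for dim probe sets, since no detection calls were given. The 3′ to 5′ log2 difference of the Actb controls was 0.45 and 0.45 after 3 or more divisions against 0.33 and 0.27 after 0, and that of the Gapdh controls was 0.27 and 0.25 against 0.11 and 0.10. A probe set for the 5′ part of 18S rRNA had linear intensities of 1747 and 1553 against 5896 and 5704. These quality readings moved with the cohort, and their part in the results was not tested.

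Of the induced factors, Pou5f1 was called higher after 3 or more divisions than after 0 and Klf4 lower. Pou5f1, which is not normally expressed in fibroblasts, read 3.94 and 3.64 in the uninduced control. It read 6.16 and 5.4 after 0 divisions and 7.67 and 8.28 after 3 or more, a change of 2.19 ± 0.35 (log2, SE; limma adjusted p = 0.0091). The call did not pass without replicate 2 of 3 or more divisions or without replicate 2 of 0 divisions, where the adjusted p reached 0.0864. Klf4 read 9.76 and 10.01 after 0 divisions and 8.67 and 8.49 after 3 or more (-1.31 ± 0.19, adjusted p = 0.00732). A dimmer Klf4 probe set differed from it, at 8.85 and 9.04 against 9.02 and 9.05 (change 0.09, adjusted p = 0.832), and without replicate 2 of 3 or more divisions the brighter one had an adjusted p of 0.0735. Neither gene stepped within the later set of arrays: Pou5f1 averaged 5.78, 5.83, 5.99 and 7.97 after 0, 1, 2 and 3 or more divisions, and Klf4 9.89, 10.13, 9.87 and 8.58. The change of both thus lay between the cohorts of 2 and of 3 or more divisions, where the set of arrays also changes. Myc was 1.43 ± 0.47 higher but missed the threshold (adjusted p = 0.0912). With the replicate number as a block its adjusted p was 0.00424, within a range of 0.000701 to 0.411 over all alternatives. Sox2 stayed at the yardstick for dim probe sets, at 3.73 and 3.63 against 3.84 and 3.99. No source used here states whether these probe sets cover the transgenes, so they cannot check the induction.

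Over 18193 genes, each read by its brightest probe set, 1494 were called higher after 3 or more divisions and 913 lower (limma, Benjamini-Hochberg adjusted p under 0.05). These were 8.21% and 5.02% of the genes tested. At least 2-fold, 554 were higher and 447 lower, and 41 rose and 20 fell at least 8-fold. Where the lower cohort's mean was at or under the yardstick for dim probe sets, a change is given below as a bound, with each array of that cohort at the higher of its reading and the yardstick. With such genes at their bound, 542 and 442 genes passed 2-fold and 37 and 20 passed 8-fold. All 2407 called genes had arrays of the cohorts that did not overlap, as did 32.5% of all genes in the direction of higher and 25.6% in that of lower. With the replicate number as a block, 2565 were called higher (14.1%) and 1940 lower (10.7%), and all 2407 genes kept their call and direction. Counts of called list members below are to be read against these shares, and without the block against 8.21% and 5.02%. The lists and their members were chosen with earlier results of these data known. Counts above these shares were thus favoured by the choice and are a description. Leaving out 1 array cost many calls. Higher and lower calls numbered 837 and 490 without replicate 1 of 3 or more divisions, 174 and 132 without its replicate 2, 223 and 171 without replicate 1 of 0 divisions, and 461 and 302 without its replicate 2. In all 4 of these fits 266 genes kept the call.

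**Figure D1:**
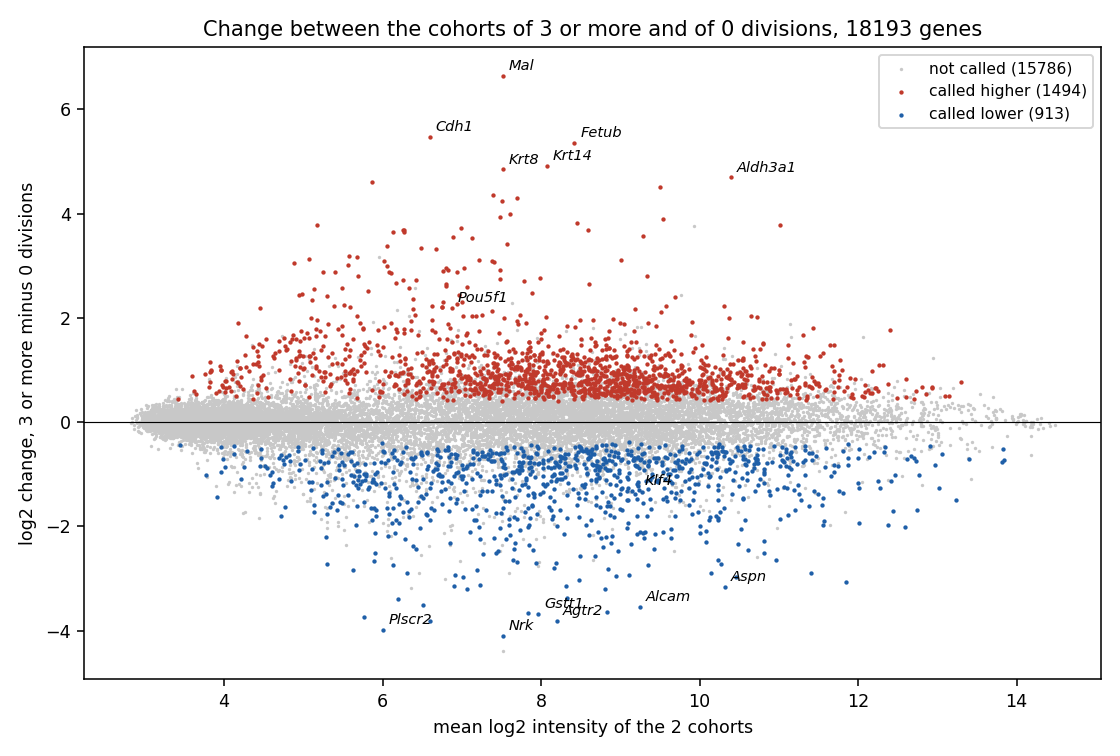
Change of each of 18193 genes (3 or more minus 0 divisions, log2, vertical axis) against the mean log2 intensity of the 2 cohorts (horizontal axis), with the 1494 genes called higher in red and the 913 called lower in blue. The largest rises include Mal and Cdh1, and the largest falls include Nrk and Plscr2.

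Of the 15 largest rises, 10 were in genes of the epithelial adhesion and stratified epithelium lists. Mal, a membrane proteolipid of apical transport, read 3.91 and 4.49 after 0 divisions and 10.91 and 10.76 after 3 or more, a 99.7-fold rise (6.64 ± 0.51, limma adjusted p = 0.00105). Cdh1, which encodes E-cadherin of adherens junctions, read 3.63 and 4.08 against 9.21 and 9.45 (fitted change 5.47 ± 0.40, adjusted p = 0.00094). Its mean after 0 divisions, 3.86, was under the yardstick, so the rise was at least 38-fold. Mal had a mean just above the yardstick after 0 divisions, and for both genes the arrays were far apart between the cohorts. Fetub, a secreted protease inhibitor, read 5.05 and 6.44 against 10.83 and 11.36 (5.35 ± 0.63, adjusted p = 0.00347). Krt8, a keratin of simple epithelia, read 5.24 and 4.94 against 9.88 and 10.01 (4.85 ± 0.27, adjusted p = 0.0005). Dsp encodes desmoplakin, which ties keratin filaments to desmosomes, and read 6.69 and 7.79 against 11.59 and 11.93 (4.52 ± 0.57, adjusted p = 0.00442). Them5, an acyl-CoA thioesterase, was under the yardstick after 0 divisions and rose at least 17.1-fold, and Lgr6, a receptor for R-spondins, rose by 4.36 ± 0.51. Ces1f, a carboxylesterase, and Podxl, which encodes podocalyxin of apical membranes, rose by 4.30 ± 0.56 and 4.25 ± 0.64. In each of these genes, as in every gene called higher, both arrays of 3 or more divisions lay above both arrays of 0. The calls passed with any 1 of the 4 arrays left out, except that of Podxl, which was lost without replicate 2 of 3 or more divisions and without replicate 1 of 0 divisions (adjusted p up to 0.0761). A second Them5 probe set at 3.26 to 3.84 in the 4 arrays was not called (change 0.38), and the other one was called higher (2.39).

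**Figure D2:**
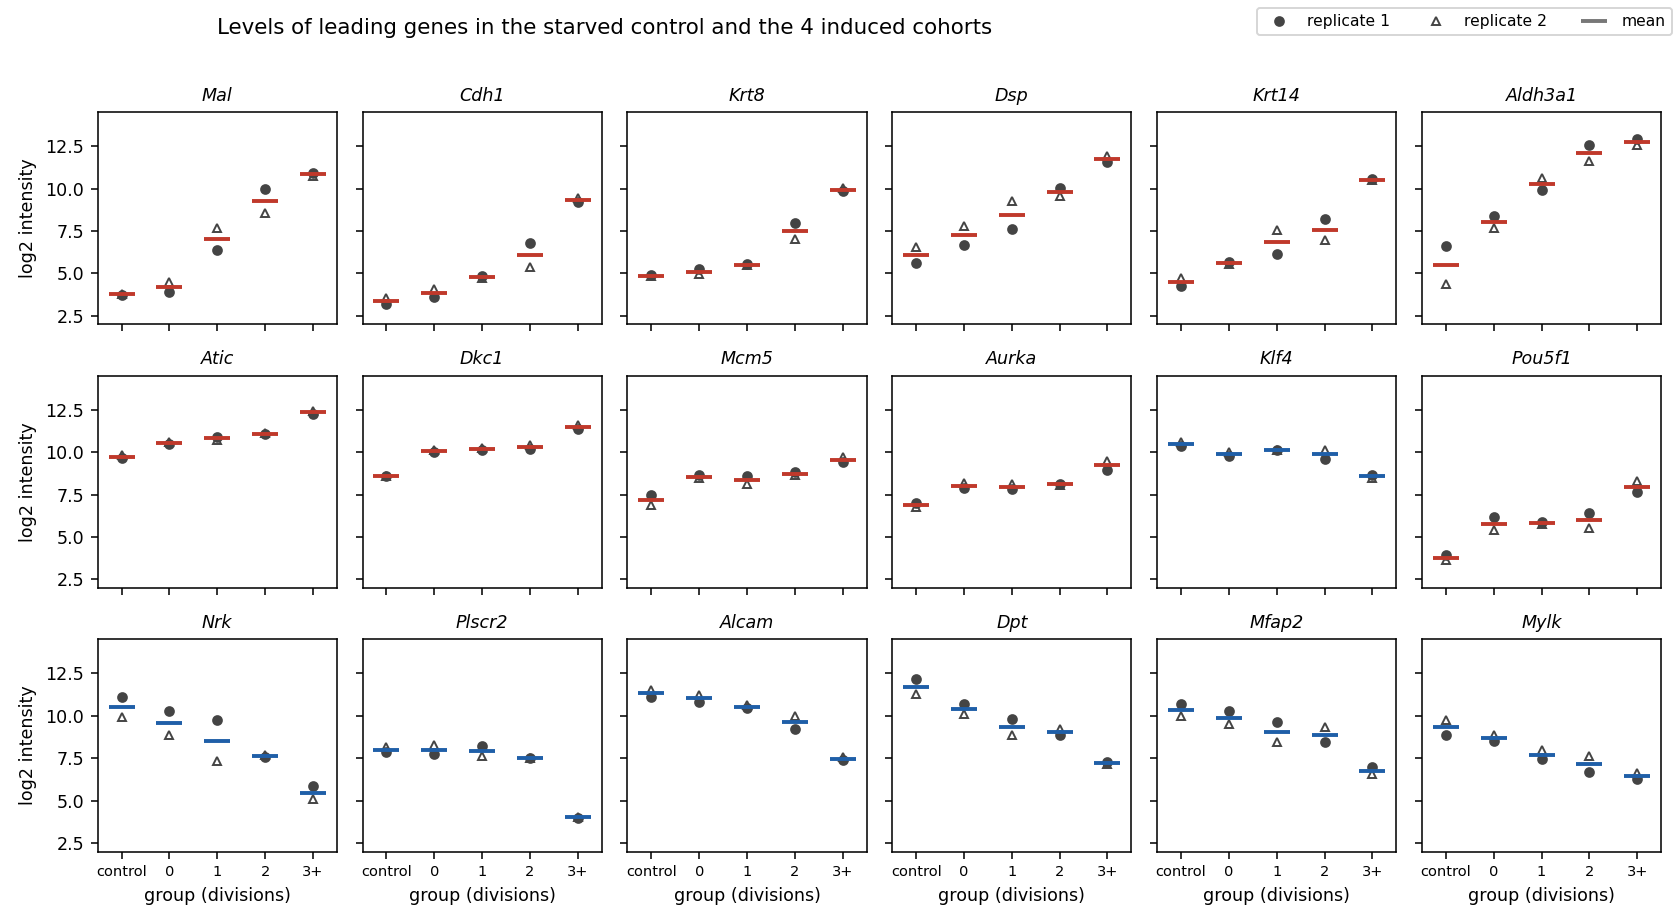
Log2 intensity (vertical axis) of 18 genes in the control and the 4 induced cohorts (horizontal axis), with a circle for replicate 1, a triangle for replicate 2 and a bar for the mean, red for genes called higher and blue for genes called lower after 3 or more than after 0 divisions. Mal, Dsp and Aldh3a1 are read at levels between those of the compared cohorts after 1 and 2 divisions, while Plscr2 is near its level of 0 divisions in both.

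In the list of epithelial adhesion genes, 14 of 45 measured members were called higher, 0 lower and 31 not called, against 8.21% and 5.02% of all genes called higher and lower. The list's median change was 0.24 against 0.03 over all genes. Many members were dim: a filter that kept probe sets with a mean over the 10 arrays above 5.74 left 16 members, with 8 called higher and a median of 1.34, while a floor of 16 on the linear intensity gave a median of 0.13. Besides Cdh1, Krt8 and Dsp, Krt19 read 5.4 and 5.62 after 0 divisions and 9.63 and 9.27 after 3 or more (3.94 ± 0.30, adjusted p = 0.00105). Itgb4, the integrin of hemidesmosomes, read 5.11 and 5.15 against 9.05 and 8.67 (3.72 ± 0.35), and Pkp1, a desmosomal plakophilin, 6.47 and 7.02 against 10.30 and 10.58 (3.69 ± 0.31). Grhl3, a transcription factor of surface epithelia, read 4.19 and 4.4 against 7.33 and 6.87 (2.81 ± 0.32, adjusted p = 0.00341). Lama3, a laminin chain of the epidermal basement membrane, rose by 2.17 ± 0.22. Krt18, the usual filament partner of Krt8, read 3.54 and 3.67 against 3.92 and 3.77 and was not called, and Epcam, an adhesion molecule of epithelial and embryonic stem cells, read 6.30 and 5.87 against 6.54 and 6.1. The count of members called higher was 9 to 13 with 1 array left out, lowest without replicate 2 of 3 or more divisions, and the calls of the genes given here with a test passed in each of those fits.

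Genes of stratified epithelia, the layered covering of skin and mouth, formed the list with the largest median change, 1.38. Of 37 measured members, 22 were called higher, 0 lower and 15 not called. The filter on dim probe sets left 13 members, with 10 called higher and a median of 2.88. Krt14, a keratin of basal keratinocytes, read 5.66 and 5.56 after 0 divisions and 10.56 and 10.50 after 3 or more (4.92 ± 0.50, adjusted p = 0.00244). A second probe set of Krt14 was called higher too (4.66), and the remaining one, at 3.68 to 3.90 in the 4 arrays, was not called. Krt6a and Krt16, keratins of wounded and hyperproliferative epidermis, rose by 4.0 ± 0.30 and 3.82 ± 0.45. The other Krt6a probe sets were called higher too but differed in size, with changes of 6.55 and 3.10. The former read 4.33 and 4.55 after 0 divisions and 10.86 and 11.12 after 3 or more. Krt16 read 6.68 and 6.41 against 10.51 and 10.23. Aldh3a1, an aldehyde dehydrogenase abundant in the corneal epithelium, read 8.40 and 7.71 against 12.91 and 12.59 (4.70 ± 0.67, adjusted p = 0.00654), and Slurp1, a secreted peptide of keratinocytes, 8.0 and 7.18 against 11.91 and 11.05 (3.90 ± 0.52, adjusted p = 0.00512). Krt13, a keratin of the oral mucosa, was under the yardstick at 3.08 and 3.49 after 0 divisions and at 6.93 and 7.19 after 3 or more, at least 7.9-fold higher. Trp63, the transcription factor of basal keratinocytes, and Krt5, the usual partner of Krt14, were not called: Trp63 read 5.10 and 4.98 against 4.68 and 4.78, and Krt5 5.24 and 5.09 against 5.02 and 5.24. With 1 array left out, 15 to 21 members were called higher, and Aldh3a1 was lost without replicate 2 of 3 or more divisions (adjusted p = 0.0554).

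Of the 36 called members of both epithelial lists, 20 had an entry in the RefSeq promoter table used here and 16, Cdh1 among them, were not searched. Promoter sequences are shown for Krt8 and Grhl3, by a choice that did not cover all chromosomes. On those covered, they had the largest rises among those 20 with CACCTG or its reverse complement CAGGTG in the 250 bases before the start site. These letters are the E-box form that Snai and Zeb repressors are known to read. In windows of 250 bases before to 50 after the RefSeq start site (GRCm38.p6), 23 of 49 promoters of the measured members of both epithelial lists held the motif (46.9%), against 19.7% of 14452 measured genes, 19.6% of those called higher and 19.2% of 26 fibroblast matrix promoters. The match is a description of the letters and shows no binding. Capitals mark the motif in the 250 bases before the start, 5′ to 3′ on the gene's own strand, which is the minus strand for both, at chr15:102004343-102004592 for Krt8 and chr4:135573633-135573882 for Grhl3.
Krt8: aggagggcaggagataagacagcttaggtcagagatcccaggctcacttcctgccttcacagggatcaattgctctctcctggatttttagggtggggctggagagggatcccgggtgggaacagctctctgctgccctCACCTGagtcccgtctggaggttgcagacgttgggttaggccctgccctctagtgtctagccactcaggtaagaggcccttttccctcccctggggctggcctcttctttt
Grhl3: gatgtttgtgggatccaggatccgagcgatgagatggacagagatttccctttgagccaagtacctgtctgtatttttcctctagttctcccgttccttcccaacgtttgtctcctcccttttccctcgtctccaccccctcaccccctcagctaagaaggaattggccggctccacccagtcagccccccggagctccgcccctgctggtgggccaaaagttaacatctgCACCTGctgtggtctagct

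The 15 largest falls were in genes of varied function, and 3 of them, Col8a2, Dpt and Cdkn1c, belonged to a gene list. Nrk, a kinase of the Ste20 family expressed in embryonic mesenchyme, read 10.26 and 8.87 after 0 divisions and 5.83 and 5.10 after 3 or more (-4.10 ± 0.78, limma adjusted p = 0.0154). Plscr2, of the phospholipid scramblase family, read 7.74 and 8.25 against 4.0 and 4.03 (fitted change -3.98 ± 0.24, adjusted p = 0.0005), which is under the yardstick for dim probe sets, so that it was at least 15-fold lower. Alcam, an adhesion molecule of the immunoglobulin family, read 10.79 and 11.25 against 7.37 and 7.57 (-3.55 ± 0.28, adjusted p = 0.00105), and its 4 other probe sets were called lower too. Npr3, the clearance receptor of natriuretic peptides, fell by 3.64 on the log2 scale, and Agtr2, the type 2 receptor of angiotensin II, by 3.81. Both replicates of each fell, but they differed widely, as Agtr2 read 10.98 and 9.23 against 6.85 and 5.75. Ptprd, a receptor tyrosine phosphatase, read 10.03 and 10.00 against 6.73 and 6.56 (-3.37 ± 0.24, adjusted p = 0.00094). Of its 6 other probe sets, 2 were called lower, and the remaining ones read at most 5.17. Gstt1, a glutathione transferase, and Apoe, a carrier of lipids, fell by 3.67 and 3.40. Egfl6, a secreted protein with EGF repeats, was under the yardstick after 3 or more divisions and at least 11.4-fold lower. Olfml1, of the olfactomedin family, fell by 3.81 and Gm15866, a gene with no assigned function, by 3.66. Plscr2, Alcam, Ptprd and Gm15866 passed with any 1 array left out. Egfl6 was lost without replicate 2 of 3 or more divisions (adjusted p = 0.0614). Nrk was lost without that array and without replicate 1 of 0 divisions, and Gstt1 also without replicate 2 of 0 divisions. Agtr2, Olfml1 and Apoe were lost with each array left out. Npr3 was lost without replicate 1 of either cohort or replicate 2 of 0 divisions.

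In the list of fibroblast matrix genes, 20 of 42 measured members were called lower and 0 higher, with a median change of -1.0, and with the replicate block 30 were called lower. With 1 array left out, 7 to 16 were called lower, and without replicate 2 of 3 or more divisions the number was 7, without replicate 1 of 0 divisions 9 and without replicate 2 of 0 divisions 11. Col8a2, a chain of the short-chain collagen VIII, read 8.23 and 8.30 after 0 divisions and 5.33 and 4.19 after 3 or more (-3.50 ± 0.43, adjusted p = 0.00386). Dpt encodes dermatopontin, which organises collagen fibrils, and read 10.72 and 10.08 against 7.27 and 7.14 (-3.19 ± 0.38, adjusted p = 0.00365). The microfibril genes Mfap2 and Mfap5 fell by 3.14 and 2.95, with Mfap5 at 9.98 and 10.85 against 7.40 and 7.53. Aspn, the leucine-rich proteoglycan asporin, which is in no list, fell from 12.16 and 11.64 to 9.21 and 8.28 (-3.16 ± 0.33). Fbln5, a fibulin of elastic fibers, fell by 1.69 and Lox, which crosslinks collagen and elastin, by 1.49. Of the chains of collagen I, Col1a2 read 14.16 and 14.24 against 13.30 and 13.58 (-0.76 ± 0.17, adjusted p = 0.0246), while Col1a1 read 13.15 and 13.51 against 13.42 and 13.23 and was not called. Col8a2, Dpt, Mfap5, Aspn and Fbln5 passed with any 1 array left out. Without replicate 2 of 3 or more divisions Mfap2, Lox and Col1a2 did not, and Mfap2 was also lost without replicate 1 of 0 divisions and Col1a2 in every such fit, with an adjusted p of at most 0.0758 and 0.12.

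Among 15 matrix metalloproteinases and their Timp inhibitors, 3 were called lower and 2 higher, with a median change of -0.46. The shares of all genes were 5.02% and 8.21%. Mmp2, a gelatinase of fibroblasts, read 12.71 and 12.12 after 0 divisions and 11.32 and 10.87 after 3 or more (-1.32 ± 0.27, adjusted p = 0.0191). The membrane-bound Mmp16 fell by 1.67 and Mmp19 by 1.10. Timp1, a secreted inhibitor, rose from 11.10 and 11.51 to 12.32 and 12.10. Mmp13, a collagenase, rose from 3.59 and 3.88 to 5.35 and 4.86 (fitted change 1.37 ± 0.36, adjusted p = 0.0455), at least 2.03-fold from a mean under the yardstick. Without replicate 2 of 3 or more divisions or replicate 1 of 0 divisions, none of the 15 genes was called, and the adjusted p of Mmp2, Mmp13 and Mmp19 reached 0.153, 0.217 and 0.252.

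Of 27 measured contractile and TGF-beta genes, 7 were called lower, 0 higher and 20 not called, with a median change of -1.09, and with the replicate block 19 were called lower. Mylk, the kinase of myosin light chains, read 8.49 and 8.88 after 0 divisions and 6.26 and 6.62 after 3 or more (-2.24 ± 0.38, adjusted p = 0.0111). Ltbp3 and Ltbp1, which hold latent TGF-beta in the matrix, fell by 1.69 and 1.51, and Cnn2, a calponin, by 1.61. Tagln, an actin-binding protein of smooth muscle, differed between numbers: it read 12.03 and 13.25 against 9.71 and 11.62, a difference of -1.97 that was called with the block and not without it. Acta2, smooth muscle actin, read 13.67 and 14.27 against 12.36 and 13.40, arrays that did not overlap but were likewise called with the block and not without it. With 1 array left out 0 to 3 members were called lower: 3 without replicate 1 of 3 or more divisions, 2 without replicate 2 of 0 divisions, and 0 without the other arrays, where Mylk, Ltbp1 and Ltbp3 had adjusted p of at most 0.0764 and Cnn2 of at most 0.092.

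Regulators and surface proteins of mesenchyme fell in a few members while Snai1, Snai2, Zeb1 and Zeb2, transcription factors of the mesenchymal state, were not called. Of 36 measured members, 7 were called lower and 1 higher, with a median change of -0.37. With the replicate block 15 were lower and 2 higher. Osr1, a zinc finger factor of mesenchymal progenitors, read 10.58 and 9.88 after 0 divisions and 8.79 and 8.07 after 3 or more (-1.80 ± 0.43, adjusted p = 0.0335). Cdh11, a cadherin of mesenchymal cells, read 12.32 and 12.26 against 10.83 and 10.83 (-1.46 ± 0.22, adjusted p = 0.00789), and Pdgfrb, a receptor of platelet-derived growth factor, 11.04 and 11.17 against 9.67 and 9.77 (-1.38 ± 0.17, adjusted p = 0.00416). Twist1, another such factor, was called lower, from 10.39 and 9.86 to 9.29 and 8.98. Zeb1 read 10.30 and 10.27 against 10.00 and 9.85, Snai1 5.97 and 5.99 against 5.84 and 5.74, and neither was called. Snai2 read 11.74 and 11.12 against 10.54 and 10.12, and its difference of -1.10 was called with the block and not without it. Foxd1, a forkhead factor of stromal progenitors, was the member called higher (1.77 ± 0.42, adjusted p = 0.0325). With 1 array left out 1 to 4 members were called lower and 0 higher. Pdgfrb kept its call in all of them, Cdh11 was lost without replicate 2 of 3 or more divisions or replicate 1 of 0 divisions (adjusted p up to 0.07), Twist1 passed without replicate 2 of 0 divisions and in no other such fit, and Osr1 and Foxd1 were lost in each (up to 0.23 and 0.218).

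Imprinted growth genes, listed as expressed from a single parental allele in at least some tissues, were lower in 7 of 17 measured members and higher in 1. Their median change was -1.26, which equals the change of the fibroblast marker Dcn. The allele in use was not read here. With the replicate block 11 were lower. Cdkn1c, an inhibitor of cyclin-dependent kinases, read 9.25 and 8.07 after 0 divisions and 5.67 and 5.26 after 3 or more (-3.19 ± 0.64, adjusted p = 0.0189). Peg3, a zinc finger protein, read 9.23 and 9.35 against 6.16 and 7.02 (-2.70 ± 0.57, adjusted p = 0.0224), and Sgce, a sarcoglycan, 10.57 and 10.12 against 8.53 and 7.91 (-2.13 ± 0.34, adjusted p = 0.00909). Ndn, a growth suppressor of the MAGE family, was tightly placed at 12.10 and 12.11 against 10.80 and 10.78 (-1.31 ± 0.15, adjusted p = 0.00302). The growth factor Igf2 read 12.12 and 9.71 against 9.01 and 7.87 and was called with the block and not without it. Phlda2, a placental growth restrictor, was called higher, at least 1.85-fold, from 3.71 and 4.09 to 4.74 and 5.20. Ndn passed with any 1 array left out. Between 1 and 5 members were called lower in those fits, with 1 without replicate 2 of 3 or more divisions or replicate 1 of 0 divisions and 3 without replicate 2 of 0 divisions. The adjusted p of Cdkn1c, Peg3 and Sgce reached 0.141, 0.111 and 0.0855.

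Genes of ribosome assembly rose together. Of 41 measured members, 30 were called higher and 0 lower, all 41 differences lay above 0, and the median change was 0.91, with 40 called higher with the replicate block. Rrp1b, a nucleolar protein of ribosomal RNA processing, read 8.09 and 8.09 after 0 divisions and 9.41 and 9.71 after 3 or more (1.47 ± 0.14, limma adjusted p = 0.00223). Polr1b, a core subunit of RNA polymerase I, read 7.47 and 7.69 against 8.75 and 9.20 (1.40 ± 0.21, adjusted p = 0.00782). Dkc1, the pseudouridine synthase of small nucleolar particles, read 10.00 and 10.14 against 11.36 and 11.57 (1.40 ± 0.13, adjusted p = 0.00214). Noc4l, which acts in export of the small subunit, rose by 1.28 ± 0.22, and Fbl, the methyltransferase fibrillarin, from 11.14 and 11.12 to 12.07 and 12.37. Ncl, the nucleolar protein nucleolin, rose from 12.86 and 12.82 to 13.37 and 13.33. With 1 array left out the number called fell to 16 without replicate 1 of 3 or more divisions, 8 without replicate 2 of 0 divisions, 4 without replicate 1 of 0 divisions and 2 without replicate 2 of 3 or more divisions. Rrp1b and Dkc1 passed in all of those fits, while Polr1b and Noc4l were lost without the last pair of arrays (adjusted p up to 0.0709 and 0.0978), Fbl without replicate 2 of 3 or more divisions and Ncl in each fit.

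DNA replication genes were higher in 18 of 45 measured members and lower in 1, with a median change of 0.70 and 41 differences above 0. With the replicate block 28 were called higher. Mybl2, a transcription factor of S phase, read 4.57 and 5.08 after 0 divisions and 6.12 and 6.74 after 3 or more (1.6 ± 0.30, adjusted p = 0.0142). The licensing factors Cdt1 and Cdc6 rose by 1.35 ± 0.25 and 1.18 ± 0.22, with Cdc6 at 6.40 and 6.01 against 7.2 and 7.57. Mcm10, which acts in origin firing, rose by 1.31 ± 0.28, and Mcm5, a subunit of the replicative helicase, read 8.63 and 8.47 against 9.40 and 9.70. E2f1, a transcription factor of the same program, was the member called lower, at 7.59 and 7.57 against 6.93 and 6.93. The sliding clamp Pcna read 12.32 and 11.98 against 12.32 and 12.32 and was not called. No member was called higher without replicate 2 of 3 or more divisions or without replicate 1 of 0 divisions, 3 without replicate 2 of 0 divisions and 14 without replicate 1 of 3 or more divisions. The adjusted p of Mybl2, Cdt1, Cdc6 and Mcm10 reached 0.121, 0.126, 0.127 and 0.183 in these fits, and Mcm5 was lost in each.

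Mitosis genes were called higher in 13 of 37 measured members and lower in 0, with a median change of 0.77, and 22 were called higher with the replicate block. Aurka, a kinase of the spindle poles, read 7.86 and 8.20 after 0 divisions and 8.97 and 9.48 after 3 or more (1.19 ± 0.21, adjusted p = 0.0122). Anln, which encodes the contractile ring protein anillin, read 9.27 and 9.68 against 10.37 and 10.84 (1.13 ± 0.19, adjusted p = 0.0109). Plk1 and Cdc20, a mitotic kinase and an activator of the anaphase-promoting complex, rose by 1.07 ± 0.19 and 1.04 ± 0.19. Cdk1 read 9.78 and 9.90 against 10.07 and 10.30, Mki67 8.90 and 8.96 against 9.50 and 9.74, and neither of these proliferation genes was called. The starved control averaged 9.06 for Cdk1 and 7.70 for Mki67. As with replication, 0 members were called without replicate 2 of 3 or more divisions or without replicate 1 of 0 divisions, 4 without replicate 2 of 0 divisions and 12 without replicate 1 of 3 or more divisions. The adjusted p of Aurka, Anln, Plk1 and Cdc20 reached 0.0978, 0.0877, 0.118 and 0.118.

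Promoters of 2 called members are shown for each of these lists, those with the largest rises among members in the promoter table that held the list's motif in the 250 bases before the start. This choice did not cover all chromosomes. The searched letters, on both strands, were CACGTG, the E-box that Myc with its partner Max is known to read, TTTNNCGC, the core of the E2F site, and TTTGAA, the core of the cell cycle genes homology region of late cell cycle promoters. CACGTG was found in 9 of 36 ribosome biogenesis promoters (25%) against 9.02% of all 14452, TTTNNCGC in 15 of 36 replication promoters (41.7%) against 7.28%, and TTTGAA in 24 of 31 mitosis promoters (77.4%) against 13.3%. Among genes called higher as a whole the shares were 12.1%, 10.2% and 13%. All measured members with a RefSeq promoter were counted, whether called or not. The letters describe the windows and show no binding. Nop2, which methylates ribosomal RNA, is shown at chr6:125131633-125131882 (plus strand), and Imp4, a small subunit processing factor, at chr1:34439579-34439828 (plus strand). Cdc6 is shown at chr11:98907901-98908150 (plus strand), and Mcm5, with 2 overlapping matches, at chr8:75109259-75109508 (plus strand). Cdc20 is shown at chr4:118437344-118437593 (minus strand), and Ect2, an exchange factor of cytokinesis, at chr3:27153879-27154128 (minus strand). Capitals mark the matches in the RefSeq sequence (GRCm38.p6), 5′ to 3′ on each gene's strand.
Nop2: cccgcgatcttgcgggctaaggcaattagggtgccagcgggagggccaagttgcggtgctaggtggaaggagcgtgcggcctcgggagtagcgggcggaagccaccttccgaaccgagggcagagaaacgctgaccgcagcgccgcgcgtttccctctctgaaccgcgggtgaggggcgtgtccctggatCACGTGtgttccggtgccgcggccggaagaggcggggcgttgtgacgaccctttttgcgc
Imp4: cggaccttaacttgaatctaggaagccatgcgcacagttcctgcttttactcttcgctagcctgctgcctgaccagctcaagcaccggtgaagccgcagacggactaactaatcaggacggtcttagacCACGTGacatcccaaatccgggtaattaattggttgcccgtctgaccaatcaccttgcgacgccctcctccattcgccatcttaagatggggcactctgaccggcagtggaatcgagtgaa
Cdc6: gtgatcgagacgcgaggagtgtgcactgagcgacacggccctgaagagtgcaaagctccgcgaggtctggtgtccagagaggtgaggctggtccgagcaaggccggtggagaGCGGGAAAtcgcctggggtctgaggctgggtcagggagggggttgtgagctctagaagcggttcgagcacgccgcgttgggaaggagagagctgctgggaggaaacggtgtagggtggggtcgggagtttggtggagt
Mcm5: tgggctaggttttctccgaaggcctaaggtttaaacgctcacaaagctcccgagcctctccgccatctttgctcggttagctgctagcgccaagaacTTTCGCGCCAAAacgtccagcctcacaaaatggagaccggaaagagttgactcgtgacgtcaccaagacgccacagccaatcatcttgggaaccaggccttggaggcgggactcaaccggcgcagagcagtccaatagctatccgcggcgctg
Cdc20: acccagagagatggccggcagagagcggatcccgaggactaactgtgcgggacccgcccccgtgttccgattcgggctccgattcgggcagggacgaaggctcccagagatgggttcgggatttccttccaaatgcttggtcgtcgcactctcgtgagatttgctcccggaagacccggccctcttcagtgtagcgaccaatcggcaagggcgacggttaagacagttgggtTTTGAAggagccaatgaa
Ect2: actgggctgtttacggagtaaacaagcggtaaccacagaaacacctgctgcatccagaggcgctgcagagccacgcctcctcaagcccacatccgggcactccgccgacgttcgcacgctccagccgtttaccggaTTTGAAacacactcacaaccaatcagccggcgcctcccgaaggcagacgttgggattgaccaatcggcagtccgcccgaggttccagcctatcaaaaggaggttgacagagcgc

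The intensities behind these sequences ran from 6.01 for Cdc6 to 11.58 for Cdc20 in the 4 arrays. Nop2 read 8.62 and 9.01 after 0 divisions and 9.80 and 10.18 after 3 or more (1.17 ± 0.30, limma adjusted p = 0.0432), and Imp4 8.69 and 8.89 against 9.71 and 10.08. Cdc20 read 10.38 and 10.39 against 11.27 and 11.58, and Ect2 7.87 and 8.11 against 8.74 and 9.13. In Nop2, Imp4, Cdc20 and Ect2 both arrays of 3 or more divisions lay above both arrays of 0 divisions. The same held for every gene called higher, so it adds no separate support. Without replicate 2 of 3 or more divisions, or without replicate 1 of 0 divisions, the calls of these 4 genes did not pass.

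Among the metabolic lists, serine and one-carbon metabolism, which supplies nucleotide precursors, stood with 10 of 23 measured members higher and 0 lower and a median change of 0.83. Atic, the last enzyme of purine synthesis, read 10.49 and 10.57 after 0 divisions and 12.25 and 12.43 after 3 or more (1.81 ± 0.13, limma adjusted p = 0.00094). Psph, which completes serine synthesis, read 7.57 and 8.25 against 9.23 and 9.66 (1.53 ± 0.31, adjusted p = 0.0199), Ppat, the entry enzyme of purine synthesis, 7.16 and 7.2 against 8.49 and 8.61 (1.37 ± 0.24, adjusted p = 0.0116), and the mitochondrial Shmt2 9.48 and 9.83 against 10.74 and 11.16 (1.30 ± 0.22, adjusted p = 0.0113). Mthfd2, a mitochondrial folate enzyme, read 8.93 and 9.70 against 9.51 and 9.90 and was not called. Atic alone was called in this list without replicate 2 of 3 or more divisions, and without replicate 1 of 0 divisions the count was 1 as well. Psph, Ppat and Shmt2 reached an adjusted p of 0.156, 0.0996 and 0.101, and 4 members passed without replicate 2 of 0 divisions.

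Glycolysis genes were called higher in 4 of 18 measured members and lower in 1 (Aldoc, from 5.76 and 5.79 to 5.31 and 5.06), with a median change of 0.57, and 11 were higher with the replicate block. Pfkp, a phosphofructokinase, read 8.11 and 8.09 after 0 divisions and 9.74 and 10.22 after 3 or more (1.88 ± 0.20, adjusted p = 0.00266) and passed with any 1 array left out. Slc16a1, a lactate carrier, rose by 1.54 ± 0.31, Pkm, pyruvate kinase, by 1.09 ± 0.26 and Ldha, lactate dehydrogenase, by 0.82 ± 0.16, from 12.16 and 12.22 to 12.92 and 13.10. The glucose carrier Slc2a1 read 9.17 and 9.56 against 9.28 and 9.32. Without replicate 2 of 3 or more divisions or either array of 0 divisions the list had 1 member called higher, and Slc16a1, Pkm and Ldha reached an adjusted p of 0.133, 0.202 and 0.135.

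Oxidative phosphorylation genes differed less, with 6 of 29 measured members called higher, 0 lower and a median of 0.29. Ndufa4, a subunit of the respiratory chain, rose from 11.65 and 11.72 to 12.65 and 12.68 (0.98 ± 0.17, adjusted p = 0.0123), Uqcrc1, of complex III, by 0.83 ± 0.14, Cycs, cytochrome c, by 0.68 ± 0.18 and Ndufs1, of complex I, by 0.63 ± 0.13. At most 1 of the 29 was called with 1 array left out, the 1 without replicate 1 of 3 or more divisions and 0 without each of the others. The adjusted p of these 4 genes reached 0.0976, 0.0914, 0.252 and 0.137.

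Of 22 measured genes of cholesterol and fatty acid synthesis, 6 were called higher and 0 lower, and all 22 differences lay above 0 with a median of 0.65. Among the called members, Scd1, a desaturase, read 8.64 and 9.46 after 0 divisions and 10.82 and 10.65 after 3 or more (1.68 ± 0.30, adjusted p = 0.013), Elovl6, an elongase, 8.92 and 8.82 against 10.32 and 10.52 (1.55 ± 0.16, adjusted p = 0.00259), and Fasn, fatty acid synthase, 9.78 and 10.00 against 10.92 and 11.24 (1.19 ± 0.21, adjusted p = 0.0115). Dhcr7, which completes cholesterol synthesis, rose by 1.32 ± 0.29. Elovl6 passed with any 1 array left out. The list had 1 member called without replicate 2 of 3 or more divisions or replicate 1 of 0 divisions, 2 without replicate 1 of 3 or more divisions and 4 without replicate 2 of 0 divisions, and Scd1, Fasn and Dhcr7 reached an adjusted p of 0.0891, 0.103 and 0.166.

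The list of glutathione and oxidative stress enzymes split, with 3 of 24 measured members higher, 2 lower and a median of 0.05. With the replicate block 3 were higher and 7 lower. All genes had 8.21% higher and 5.02% lower, and 14.1% and 10.7% with the block. Gstm1, a glutathione transferase, read 11.48 and 11.07 after 0 divisions and 10.12 and 9.49 after 3 or more (-1.47 ± 0.31, adjusted p = 0.0228), and all of its 3 other probe sets were called lower. Srxn1, which repairs peroxiredoxins, was the other member that fell (-0.67). Gpx2, an epithelial glutathione peroxidase, rose from 4.48 and 4.45 to 5.45 and 5.37 (0.95 ± 0.16), Gss, glutathione synthetase, rose by 0.89 ± 0.21 and Sod2, the mitochondrial superoxide dismutase, by 0.80 ± 0.17. No member was called without replicate 2 of 3 or more divisions or without either array of 0 divisions, and the adjusted p of Gstm1, Gpx2, Gss and Sod2 reached 0.173, 0.0768, 0.205 and 0.176.

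Chromatin regulators were called higher in 14 of 38 measured members and lower in 0, with a median change of 0.47. Hells, a remodeller needed for DNA methylation, read 6.96 and 6.99 after 0 divisions and 8.01 and 8.36 after 3 or more (1.21 ± 0.19, limma adjusted p = 0.00889). Ezh2, the methyltransferase of Polycomb repressive complex 2, read 7.76 and 7.56 against 8.67 and 8.86 (1.10 ± 0.19, adjusted p = 0.0115), and its partner Suz12 rose by 0.52 while Eed, the other core subunit, read 9.61 and 9.62 against 9.99 and 10.20 and was not called. Dot1l, a methyltransferase of the histone core, rose from 6.86 and 6.68 to 7.77 and 7.97 (1.10 ± 0.17, adjusted p = 0.00821), and Chd1, a remodeller of open chromatin, by 0.90 ± 0.14. The other Chd1 probe sets, with changes of 0.48, 0.63 and 0.46, were not called. Tet1, a DNA demethylase, read 6.76 and 6.18 against 5.32 and 5.51, a difference of -1.05 called with the block and not without it. The count called higher was 9 without replicate 1 of 3 or more divisions, 1 without either array of 0 divisions and 0 without replicate 2 of 3 or more divisions, and Hells, Ezh2, Dot1l and Chd1 reached an adjusted p of 0.0825, 0.102, 0.0798 and 0.0656.

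Genes of the pluripotent state showed little difference. Of 39 measured members, 3 were called higher, Cdh1, Mybl2 and Alpl, and 1 lower, Tcea3, with a median change of 0.05. Over all genes 8.21% were called higher and 5.02% lower. With the replicate block 5 were higher and 3 lower. Nanog read 3.35 and 3.17 after 0 divisions and 3.14 and 3.55 after 3 or more, below the highest Bacillus reading of 4.08 in each array, and Zfp42 and Lin28a were as dim. Alpl, alkaline phosphatase, read 3.92 and 4.05 against 4.77 and 5.74 (fitted change 1.27 ± 0.27, at least 2.26-fold, adjusted p = 0.0226), and Tcea3, a transcription elongation factor, 8.37 and 7.56 against 6.65 and 5.94 (-1.67 ± 0.40, adjusted p = 0.0327). Mybl2 was lost without replicate 2 of 3 or more divisions and without replicate 1 of 0 divisions. Alpl was lost in those fits and without replicate 2 of 0 divisions, and Tcea3 with each array left out.

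Of 14 measured surface proteins used to stage reprogramming, 4 were called higher and 0 lower, and with the replicate block 4 and 3. The shares of all genes were 8.21% and 5.02%, and with the block 14.1% and 10.7%. Cd24a, a glycoprotein of epithelial cells, read 8.76 and 9.48 after 0 divisions and 12.89 and 12.92 after 3 or more (3.78 ± 0.36, adjusted p = 0.00208). Cd44, a hyaluronan receptor, rose by 1.47 ± 0.37 and Cd9, a tetraspanin, by 0.75 ± 0.18, while Thy1, the fibroblast antigen whose loss marks early reprogramming, read 10.38 and 10.28 against 10.46 and 9.93 and was not called. Fut4, the enzyme that makes the SSEA-1 antigen, stayed dim at 3.86 and 3.84 against 3.64 and 3.86. Cdh1 and Cd24a were the 2 members called with each array left out, and Cd44 and Cd9 were lost in each such fit, with an adjusted p of at most 0.23 and 0.16.

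Signalling and stress lists were mixed, and some of their counts were near the shares of all genes. Those shares were 8.21% higher and 5.02% lower, and 14.1% and 10.7% with the replicate block. Of 22 immediate early and AP-1 genes, 3 were called higher and 1 lower. Atf3 read 6.66 and 7.06 after 0 divisions and 8.62 and 8.89 after 3 or more (1.90 ± 0.29, adjusted p = 0.00787), Fosl1, the Fra-1 subunit of AP-1, 6.66 and 6.91 against 8.41 and 8.23 (1.54 ± 0.19, adjusted p = 0.00384), and Klf10, a TGF-beta response factor, rose by 1.25 ± 0.21. Fos went the other way, from 11.79 and 11.45 to 10.38 and 10.29 (-1.29 ± 0.25, adjusted p = 0.0171). With the block 4 were higher and 3 lower. Among 21 genes of ERK feedback and EGF signalling 3 were higher and 1 lower (3 and 4 with the block). Erbb3, a receptor of neuregulins, rose by 1.18 ± 0.19 and its ligand Nrg1 fell by 0.94, and Phlda1 and Spred2, which respond to or restrain ERK, rose by 1.25 ± 0.25 and 0.88 ± 0.12. A second probe set of Erbb3, at 3.86 to 4.01 in the 4 arrays, was not called. Other Spred2 probe sets differed by 1.04, which was called, and by 0.00, 0.13 and 0.21, which were not. Fosl1 passed with any 1 array left out. Without replicate 2 of 3 or more divisions 1 AP-1 gene was called higher and 0 ERK or EGF genes, and 0 genes of both lists were called lower with any array left out. The adjusted p of Atf3, Klf10, Fos, Erbb3, Nrg1, Phlda1 and Spred2 reached 0.0768, 0.0867, 0.128, 0.0887, 0.154, 0.129 and 0.0518.

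Of 23 inhibitors of cyclin-dependent kinases and p53 targets, 4 were called lower and 2 higher, and 7 and 4 with the replicate block. All genes had 5.02% lower and 8.21% higher, so the count of higher was near that share. With the block the shares were 10.7% and 14.1%. Besides Cdkn1c, Sesn1 and Gadd45b, both growth arrest and stress genes, fell by 1.18 and 1.12. The other Sesn1 probe sets, with changes of -1.01, -0.14 and -1.10, were not called. Perp, a p53 target that is also a desmosomal protein, rose from 9.56 and 9.70 to 11.63 and 11.71 (2.04 ± 0.29, adjusted p = 0.0065). Cdkn1a, the p21 inhibitor, read 12.48 and 12.92 against 13.32 and 13.40 and was called with the block and not without it. Cdkn2a, from the locus of the p16 and Arf barriers to reprogramming, read 9.85 and 9.78 against 9.61 and 9.49 and was not called. Perp was lost without replicate 2 of 3 or more divisions or replicate 1 of 0 divisions (adjusted p up to 0.0635). Without those arrays 0 members were called higher and 0 and 1 lower, and Sesn1, Gadd45b and Cdkn1c reached an adjusted p of 0.254, 0.169 and 0.141.

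Interferon response and Hox genes held 1 called gene each, below the 5.02% of all genes called lower. In 28 interferon genes Ifit3 was called lower, at 8.49 and 7.83 after 0 divisions against 6.24 and 5.84 after 3 or more (-2.11 ± 0.44, adjusted p = 0.0204), and in 29 Hox genes Hoxa10, at 8.76 and 8.41 against 7.45 and 6.99 (-1.37 ± 0.36, adjusted p = 0.0441). The medians of the lists were -0.25 and -0.24. With the replicate block 7 interferon genes and 6 Hox genes were lower and 1 interferon gene was higher. The block gave 10.7% of all genes lower and 14.1% higher. Both calls were lost with each array left out, with an adjusted p of at most 0.155 and 0.268.

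**Figure D3:**
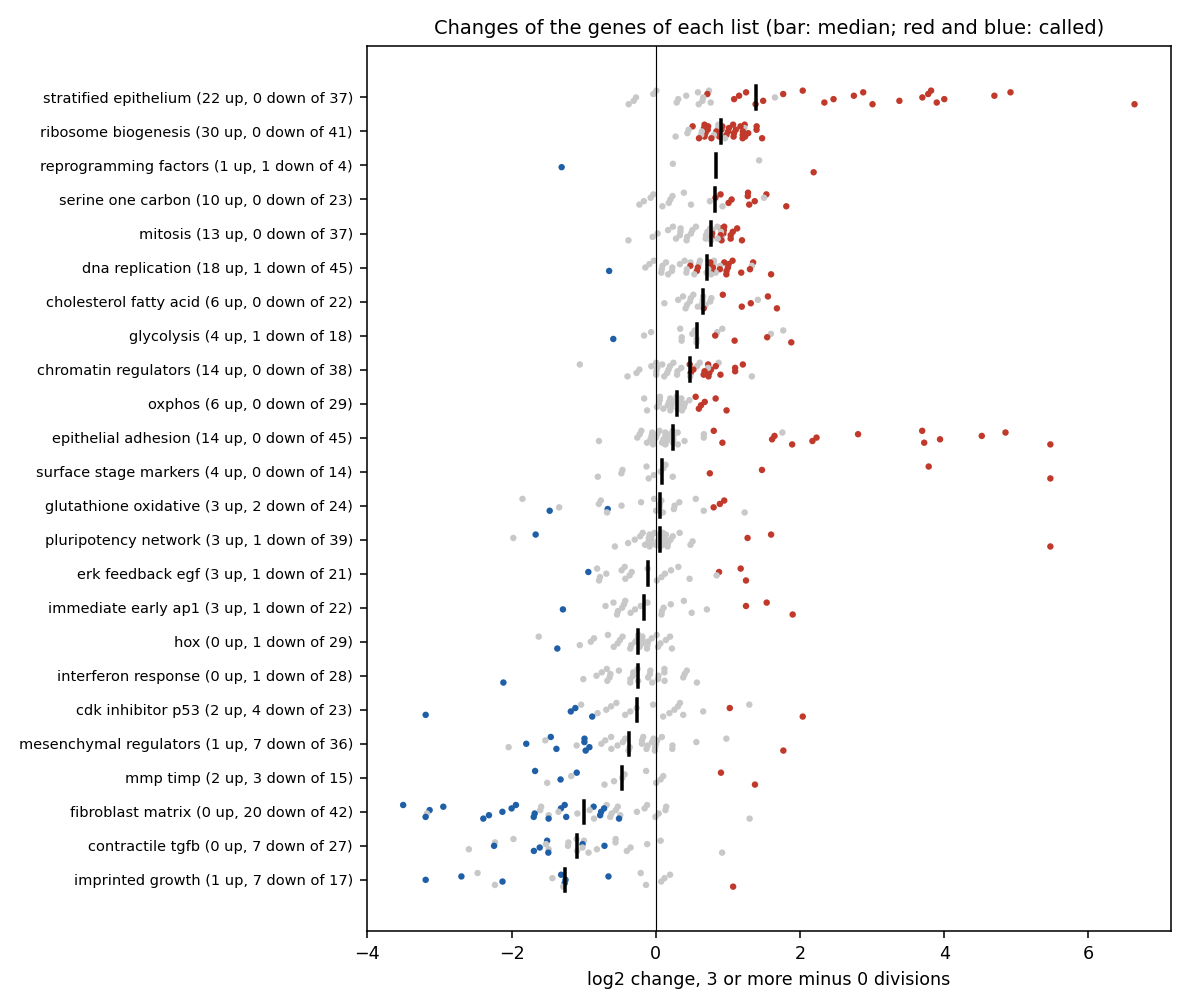
Change of each measured gene (3 or more minus 0 divisions, log2, horizontal axis) in 24 gene lists (vertical axis, with the numbers called), ordered by the list's median, which is drawn as a black bar. Genes called higher are red, genes called lower blue and the rest grey, and the stratified epithelium and ribosome biogenesis lists have the most calls of higher while the fibroblast matrix list has the most of lower.

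Some counts over lists moved by more than 1.5 times under other settings. With the floor of 16, ribosome biogenesis had 18 members called higher in place of 30 and mitosis 8 against 13. Serine and one-carbon metabolism had 6 against 10, glycolysis 2 against 4, the surface proteins 2 against 4 and glutathione enzymes 1 against 3. All 41 ribosome biogenesis and 37 mitosis genes passed the filter on dim probe sets, and the mitosis median stayed 0.77 under the floor. The floor also alters the estimate of spread shared by all probe sets, whose part was not tested. Lower calls under that floor were 4 in place of 7 contractile and TGF-beta genes, 3 against 7 mesenchymal regulators, 2 against 7 imprinted genes and 1 against 4 cyclin-dependent kinase inhibitors and p53 targets, and 0 of the metalloproteinases and inhibitors were called in either direction. In the 4 compared arrays alone, 10 genes of cholesterol and fatty acid synthesis were called higher in place of 6, and 4 imprinted genes lower in place of 7. The filter on dim probe sets kept 8 of the 39 pluripotency genes and called 0 of them higher.

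Markers of cell types other than fibroblasts were read for the same arrays. Summed linear intensity of 12 fibroblast markers was 110110 to 115606 after 0 divisions and 80540 to 94495 after 3 or more, and 3 of them were called lower (Pdgfrb, Dcn and Col1a2) and 0 higher, 6 with the block. For 16 macrophage markers the sum was 362 to 426 against 594 to 648, with Cd68 the member called, from 5.30 and 5.65 to 8.29 and 7.97 (2.65 ± 0.38, limma adjusted p = 0.0065). The defining macrophage markers Ptprc, Adgre1 and Itgam read at most 4.36 in the 4 arrays, and Csf1r 5.84 and 5.7 against 5.50 and 5.15. Endothelial sums were 644 to 851 against 764 to 828, with Tek called higher and Erg lower and Pecam1 at or under 3.77. Neural and glial sums were 1491 to 1952 against 4687 to 5454. In that list Tubb3, a tubulin of neurons, was called higher (3.08 ± 0.79, adjusted p = 0.0419) and Map2 lower, and Stmn2 read 6.84 and 9.25 against 11.66 and 11.96 and was not called, while Dcx and Sox10 read at most 5.6. Adipocyte sums were 1515 to 1746 against 713 to 994, with Lpl called lower and Adipoq at or under 3.40, and skeletal muscle sums 532 to 1063 against 525 to 551, with Tnnc2 called higher and Myod1 at or under 4.25. No marker was at 0. For the counts of called markers, the shares of all genes were 8.21% higher and 5.02% lower, and 14.1% and 10.7% with the block. With the block 4 neural markers were higher and 2 lower, and 1 adipocyte marker was higher and 2 lower. Cd68 was lost without replicate 2 of 3 or more divisions and without replicate 1 of 0 divisions. Erg, Tubb3, Tek, Map2, Dcn, Col1a2 and Tnnc2 were lost in those fits and others. Lpl was lost without replicate 1 of either cohort or replicate 2 of 0 divisions. The part of such cells in the other results was not tested.

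Whether the called genes also differed at intermediate division numbers was read from the cohorts of 1 and 2 divisions, whose 4 arrays come from 1 set and are not in the contrast, although they share in its estimate of spread. Of the 1494 genes called higher, 1278 (85.5%) were higher after 2 divisions than after 1, against 51.0% of all genes, with a median difference of 0.14 against 0.00. Of the 913 called lower, 781 (85.5%) were lower, with a median of -0.18. The replicate numbers did not share this equally. For number 1 the median differences were 0.26 and -0.31, and 88.6% and 91.6% of the genes moved in the direction of the call. For number 2 they were 0.03 and -0.04, with 56.4% and 57.0%, close to the 50.8% and 48.2% of all genes, so the pooled shift rests largely on replicate 1. Over all genes called higher, the median level was 7.86, 7.99, 8.18 and 8.89 after 0, 1, 2 and 3 or more divisions. Over those called lower it was 8.97, 8.90, 8.71 and 7.80. In both sets most of the difference lay at the last step. Among the 41 genes that rose at least 8-fold, the median level was 4.42 in the control and 5.13, 5.96, 7.28 and 8.92 after 0, 1, 2 and 3 or more divisions. Among the 20 that fell as far it was 10.28 in the control and then 9.73, 9.10, 8.45 and 6.07. For these 20 the difference of 2 minus 1 divisions was -1.19 in number 1 and 0.37 in number 2. Of the 15 largest rises, all 15 had means that rose at each step from 0 to 1, 2 and 3 or more divisions, as Mal at 4.20, 7.03, 9.27 and 10.84, and 12 of them rose from 1 to 2 divisions in both numbers. For Mal that step was 3.60 in number 1 and 0.87 in number 2. Of the 15 largest falls, 13 had means that fell at each step, Apoe and Agtr2 being the others, and 7 fell from 1 to 2 divisions in both numbers. Over all named genes, the means of 47 of 68 called higher rose at each step, and those of 33 of 44 called lower fell. Some of these steps were small, as Dkc1 averaged 10.07, 10.20, 10.32 and 11.47 and Fasn 9.89, 9.95, 9.98 and 11.08. Among named genes without that order, Aurka averaged 8.03, 7.97, 8.10 and 9.23. Shmt2 averaged 9.65, 9.66, 9.66 and 10.95 and Psph 7.91, 7.75, 7.64 and 9.45. For all of these the change lay mostly at the last step. The steps up to 2 divisions lie within the later set of arrays and the last one crosses to the earlier set. The first and last steps also use arrays of the contrast that chose these genes. An order over all steps was thus favoured by the choice and adds no separate support, and its share over all genes was not counted. The step from 1 to 2 divisions had the direction of the call in both numbers in 38 of the 68 and 20 of the 44.

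**Figure D4:**
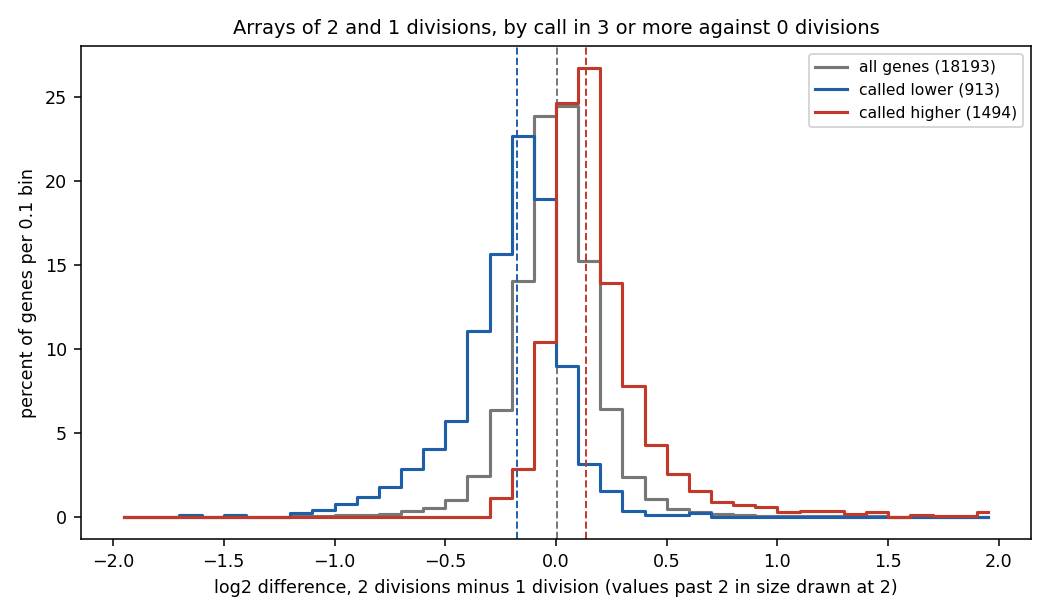
Percent of genes per bin of 0.1 (vertical axis) by log2 difference of 2 divisions minus 1 division (horizontal axis), for all 18193 genes in grey, the 1494 called higher in red and the 913 called lower in blue, with dashed lines at the medians. The medians of the called genes lie at 0.14 and -0.18 on either side of that of all genes.

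Differences of 3 or more minus 0 divisions within a replicate number were close in some named genes and far apart in others. For Mal the difference was 7.01 in number 1 and 6.27 in number 2, and for Cdh1 5.58 and 5.36. For Pou5f1 it was 1.51 and 2.87, for Ces1f 5.28 and 3.33, and for Apoe -4.34 and -2.46. The sign was the same in both numbers for every called gene, which follows from arrays that do not overlap and adds no separate support. Other probe sets of the called genes were read too: of 881 genes called higher that had others, 386 had another called higher and 2 had another called lower. Of 592 genes called lower with others, 317 had another called lower and 2 another called higher. For the remaining genes no other probe set was called in that direction, also where a single reading is given above. Such genes include Anln, Gss, Mmp19 and Sgce, whose other probe sets changed by 0.77, 0.68, -1.07 and -0.65. They also include Slc16a1 (0.32), Hoxa10 (-0.31), Erg (-0.16), Dcn (-0.08), Aurka (0.02) and Mcm10 (0.09 and 0.23). In 80 genes called higher the mean after 0 divisions, and in 21 called lower the mean after 3 or more, was at or under the highest Bacillus reading.

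**Figure D5:**
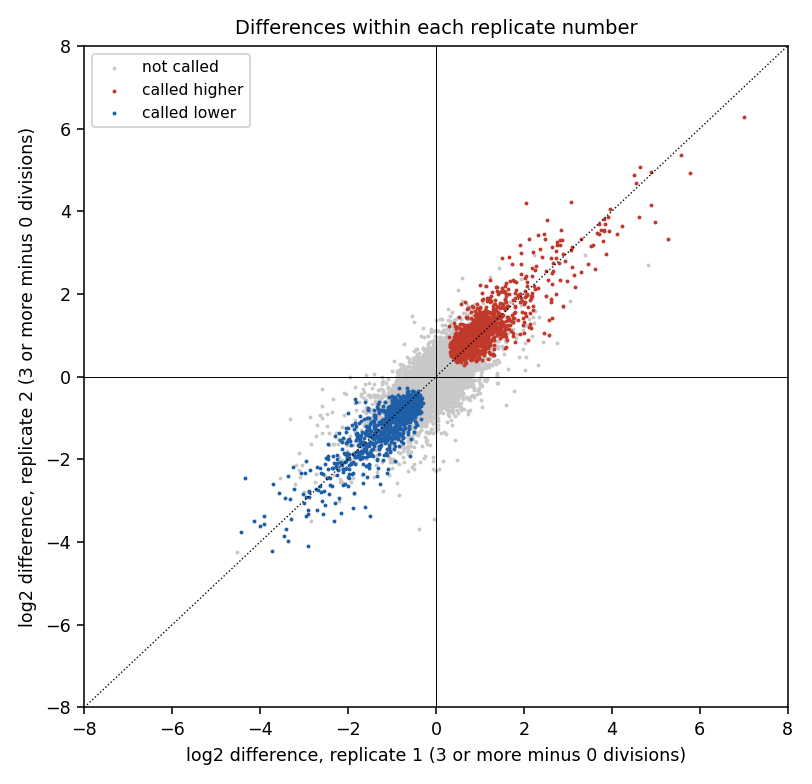
Log2 difference of 3 or more minus 0 divisions in replicate 2 (vertical axis) against replicate 1 (horizontal axis) for 18193 genes, with the genes called higher in red, called lower in blue and the dotted line at equal differences. All called genes lie in the quadrants where both differences have the sign of the call, which follows from cohorts that do not overlap.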

How the data were processed

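The authors deposited one linear intensity per probe set and array for 45101 probe sets. RMA is given for 4 arrays (control, 3 or more divisions) per the submitters' processing notes. For the other 6 arrays no tool, and for all 10 no joint normalization, is stated in the sources used here. Log2 was computed here from the deposited intensity, with a floor of 1 that moved 0 values and no further normalization.

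The platform table gave 34945 probe sets a single gene (932 had several, 9160 non-control ones none), and 34741 matched RefSeq, changing 0 symbols. limma 3.58.1 in R 4.3.3 (lmFit, eBayes) fitted 10 arrays in 5 groups, with 5 residual degrees of freedom, and adjusted p-values over the 34945 by Benjamini-Hochberg, two-sided. The method was tested on simulated data. A gene was read by its probe set with the highest mean over 10 arrays.

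Replicate numbers pair the arrays by the data: deviations of same-numbered arrays correlated with r of 0.474 to 0.873 in 10 pairs of groups (0.584 for the compared cohorts, 9096 brighter genes). The blocked fit is an alternative.

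Named genes were the factors, Cdh1, Nanog, Thy1, Fut4, the 15 largest rises and falls, and up to 4 called members per list, or the largest where none was called. Other members were named after their values were seen. Members and 30 lists (730 of 772 genes measured) were chosen with earlier results of these data known. Arrays limit precision by their number. Promoters are RefSeq's first listed start (GRCm38.p6).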

Additional observations from a re-analysis of the deposited data

How the results depend on the processing

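Blocking on the replicate number gave 2565 genes called higher and 1940 lower, and in the 4 compared arrays alone with the block 2408 and 1939, against 1494 and 913 in the fit without it. With 1 array left out the counts ran from 174 to 837 higher and from 132 to 490 lower. The lone array of a cohort was then assumed to vary like the other groups, and the cause of the losses beyond fewer arrays was not tested. Under the 9 settings that kept every array of both cohorts and used no block, higher calls ran from 1170 to 1889 and lower calls from 665 to 1044, the extremes being a floor of 16 and a centring on array medians for higher, and the floor and a filter on dim probe sets for lower. Median-centring moved the share of higher calls from 62.1% to 70.8%. No named gene, list median or count reversed. Of 112 called named genes, 82 lost the call with at least 1 array left out and 39 under at least 1 other setting, 38 of them with the floor of 16. Bright genes such as Fos and Mmp2 were among those 38. The difference of 2 minus 1 divisions over the called genes stayed between 0.121 and 0.144 for rises and between -0.152 and -0.177 for falls. Differences of dim probe sets are limited by signal over background, for which no detection calls were given.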

Other observations

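Mmp13, the collagenase called higher after 3 or more divisions, had its highest readings at an intermediate division number, 7.31 and 6.98 after 2 divisions, above its 5.35 and 4.86 after 3 or more. Plscr2, called lower, read 7.53 and 7.48 after 2 divisions and 4.0 and 4.03 after 3 or more, so that its difference lay between the cohorts of 2 and of 3 or more divisions, which are in different sets of arrays. The transcription factor Pparg, a regulator of fat cells and epithelia, read 6.74 and 6.40 after 0 divisions and 8.5 and 7.55 after 3 or more and was not called. Its target Lpl, a lipase, fell from 9.60 and 9.96 to 6.74 and 7.69 (limma adjusted p = 0.0106), with its highest mean in the starved control, 11.96. These genes were chosen after their values were seen.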
